A study of Mus musculus with 8 samples.

Results

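Monocyte progenitors and monocytes were examined in mouse bone marrow profiled cell by cell, in a transplantation model of myelofibrosis, a blood cancer in which the marrow scars. A cell was taken as a member when at least 3 of the monocyte-lineage genes F13a1, Ms4a6c, Ccr2 and Csf1r were detected, no Cox6a2 molecule was seen, and fewer than 2 of the macrophage genes C1qa, C1qb and C1qc were detected. Cox6a2 marks plasmacytoid dendritic cells. Only cells with at least 500 genes, at least 1000 unique molecular identifiers (UMIs, each 1 captured RNA molecule) and under 10% mitochondrial UMIs were considered, called pass cells below. These detected genes chose the members, so members were selected on measured values of the same libraries. Of 22078 pass cells in all 4 libraries, 2604 were members. They numbered 723 in the Gli1-/- JAK2V617F library, 287 in the WT JAK2V617F library, 706 in the Gli1-/- JAK2WT library and 888 in the WT JAK2WT library.

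Each library held the pooled marrow of 3 mice of 1 condition, taken on day 112 after transplantation. Recipients were female B6.SJL mice, 8 to 10 weeks old, irradiated with 10.5 Gy. Donors were 8 weeks old and either wild type (WT) or Gli1-/-, lacking a transcription factor at the end of the hedgehog pathway. Donor marrow was harvested 48 hours before the transplant and transduced by retrovirus with JAK2V617F, an always-active kinase found in many myeloproliferative neoplasms, or with unmutated JAK2 (JAK2WT) as control. The JAK2WT groups therefore also carry an added JAK2 gene and the same irradiation and transplant as the JAK2V617F groups. Gli1 was missing from the donor blood cells, while the irradiated recipients supplied the stroma. Cells positive for CD3, B220, TER119, GR1 or CD11b were removed magnetically before viable GFP-positive and GFP-negative cells were sorted, in a proportion the labels do not state. Because CD11b and GR1 are borne by mature monocytes, the depletion bears on which stages remain. The comparisons address the role of haematopoietic Gli1 in the disease that JAK2V617F drives. With 1 library per group, no difference between libraries below has a replicate check or a p-value, and intervals cover counting error only.

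Monocytes arise in the marrow from granulocyte-monocyte progenitors, which also give neutrophils, and from progenitors shared with dendritic cells. The transcription factors PU.1 (Spi1), Irf8 and Klf4 direct the monocyte choice, whereas the C/EBP family, Cebpe among them, directs granule formation in neutrophils. Young monocyte progenitors still make the azurophil granule proteases of their parents, such as Mpo and Elane, then gain Ly6c2, the chemokine receptor Ccr2 and, in some lines of descent, antigen-presentation genes. Monocytes are known in myelofibrosis as a source of cells and cytokines in the scarred marrow.

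The libraries differed in depth in a way that bears on the rule. Members had a median of 32745 UMIs in the Gli1-/- JAK2V617F library, 29328 in the WT JAK2V617F library, 30304 in the Gli1-/- JAK2WT library and 16065 in the WT JAK2WT library, and 5363, 5077, 5232 and 3859.5 genes in the same order. Cells with none of the 4 rule genes had median UMIs from 3179 to 10405, and cells with all 4 from 18815 to 37624.5, so detection rose with depth. Summed over members, the libraries held 24432531, 8497924, 21872832 and 14737420 UMIs, which puts a counting error of 3.97% to 6.72% on a gene at 100 CPM (counts per 1000000). Libraries shared 11 to 33 barcodes pairwise, of which at most 1 was a member in both. No Gli1 UMI was seen in members of any library, WT libraries included, so the deletion could not be checked in these cells. Jak2, the transduced gene, stood at 20.8 CPM in Gli1-/- JAK2V617F members, 22.01 in WT JAK2V617F members, 22.3 in Gli1-/- JAK2WT members and 42.4 in WT JAK2WT members, with no excess in the JAK2V617F libraries. The JAK2WT groups carry an added JAK2 gene too, so these values do not read out the transduction. How far they include the added transcript was not tested. GFP UMIs were present in 1.11%, 3.48%, 0.142% and 0.563% of members in that order, against 1.01%, 2.65%, 0.182% and 0.563% of other pass cells. A Y-linked UMI was seen in 652 of 723 and 656 of 706 members of the Gli1-/- libraries and in 0 of the members of the WT libraries, so donor sex and Gli1 genotype cannot be told apart.

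Besides the rule genes, other monocyte markers were at higher levels in members than in other pass cells of every library. Ly86, a partner of the endotoxin-sensing receptor RP105, stood at 173, 75.7, 182 and 249 CPM in members of the Gli1-/- JAK2V617F, WT JAK2V617F, Gli1-/- JAK2WT and WT JAK2WT libraries, and at 27.9, 5.42, 49.2 and 121 CPM in their other cells. Irf8 stood at 232, 151, 518 and 575 CPM in members, and at 59.8, 19.7, 193 and 374 CPM in other cells. Klf4, a factor needed for Ly6C-high monocytes, had 51.5, 28.2, 65.2 and 119 CPM in members and 11.8, 5.59, 17.1 and 41.1 CPM in other cells. All 3 separated members from the other cells of their own library. Ly6c2, given with the markers but not used by the rule, had 586, 561, 912 and 1581 CPM in members and 186, 141, 308 and 558 CPM in other cells. Fcgr1, an IgG receptor of mature monocytes, reached at most 10.4 CPM in members, and Cd14, the endotoxin co-receptor, at most 10.8 CPM. Both were still above the other cells of each library. Of the same marker list, Lyz2 had 864, 661, 372 and 1180 CPM in members and 470, 336, 145 and 277 CPM in other cells. Mpeg1 had 47.2, 28.1, 80.8 and 174 CPM in members and 11.3, 4.24, 38.9 and 136 CPM in other cells. The azurophil granule gene Mpo was still high, at 3006, 3600, 4208 and 2841 CPM in members against 1942, 1668, 2901 and 2320 CPM in other cells. Granulocyte-monocyte progenitors, chosen in part by Mpo itself, had 5300, 4839, 6949 and 5669 CPM. The members thus carried monocyte markers with granule genes of progenitors, and Fcgr1 and Cd14 only at low levels. Dendritic cell markers were detected too, and the 7 conventional dendritic cell markers summed to 78.4 CPM in Gli1-/- JAK2V617F members, 39.5 in WT JAK2V617F members, 132 in Gli1-/- JAK2WT members and 231 in WT JAK2WT members. In WT JAK2WT members Cd209a, a lectin also made by monocyte-derived dendritic cells, had 33.7 CPM (7.48 in other cells), Clec9a 18.5 CPM (11.4 in other cells) and the class II chain H2-Aa 133 CPM (371 in other cells). Xcr1, of conventional dendritic cells, reached at most 1.46 CPM, Siglech, of plasmacytoid ones, at most 4.27 CPM and Pf4, of megakaryocytes, at most 2.62 CPM. Not all markers of these lists were low. In the order used above, Bst2, of the plasmacytoid list, had 221, 148, 246 and 291 CPM in members. Other cells had 188, 113, 201 and 367 CPM of Bst2. Flt3, of the conventional list, had 22.8, 11.3, 39.5 and 30.9 CPM in members and 30.4, 10.5, 46.9 and 45.4 CPM in other cells.

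The rule is a count of detected genes, so its limit falls among like cells. Members with exactly 3 rule genes had 407, 446, 671 and 1221 CPM of Ly6c2 in the Gli1-/- JAK2V617F, WT JAK2V617F, Gli1-/- JAK2WT and WT JAK2WT libraries, and cells just outside, with 2, had 225, 259, 536 and 709 CPM. For Irf8 the cells just inside had 130.5, 97.2, 304 and 549 CPM and those just outside 56.3, 41.7, 146 and 438 CPM. Cells inside were also deeper, with median UMIs of 28162.5, 28736, 28910 and 12317 against 20282, 21001, 21582 and 4679 outside.

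Some members held RNA of other lineages. The 7 neutrophil markers summed to 2247 and 3790 CPM in the Gli1-/- and WT JAK2V617F libraries and to 109.5 and 61.4 CPM in the Gli1-/- and WT JAK2WT libraries. Nearly all secondary granule RNA of the JAK2V617F libraries came from 27 and 28 members, 3.73% and 9.76% of them, which held 95.9% and 94.5% of those UMIs. Haemoglobin RNA marked 17 members of the WT JAK2V617F library, 1 of the Gli1-/- JAK2WT library and none of the other two. Jchain, of plasma cells, marked 18 Gli1-/- JAK2WT and 60 WT JAK2WT members, which held 83.7% and 86.4% of its UMIs. Basophil or mast cell genes marked 133, 19, 60 and 41 members in the order used above. In all, 158, 58, 80 and 121 members (21.9%, 20.2%, 11.3% and 13.6%) carried such RNA. Limits were 10 UMIs per 10000 for secondary granule and haemoglobin genes and 5 for Jchain. Basophil or mast cell genes needed only detection of 2 of Mcpt8, Cpa3, Prss34 and Ms4a2, and T cell genes were scored alike. Members marked by basophil or mast cell genes had median UMIs of 36863, 36400, 34861 and 17384. The part of stray RNA in these detections was not tested. Barcodes with the highest Scrublet doublet scores included 10.2%, 5.57%, 5.81% and 6.98% of members. Among members rich in secondary granule RNA they included 18 of 27 in the Gli1-/- and 5 of 28 in the WT JAK2V617F library. Of the 17 haemoglobin-rich members of the WT JAK2V617F library they included 12. Several ratios that rest on members with RNA of other lineages are given with and without them. Others, such as that of Jchain, are given over all members only.

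The first comparison set monocytes against their nearest relatives, the granulocyte-monocyte progenitors and promyelocytes of the same library. Monocytes had more RNA of a dendritic and monocyte program led by Ly86, Irf8 and the lysosomal protease Ctss, and more of the cytoskeletal and calcium-binding genes S100a4, Lgals3 and Ahnak. They had less of basophil and mast cell genes and of the granulocyte factor Cebpe. Comparison cells were pass cells with at least 3 of Mpo, Elane, Prtn3 and Ctsg detected and at least 50 UMIs of these per 10000, and with fewer than 2 rule genes. They numbered 1150, 618, 1102 and 2753, with median UMIs of 8713.5, 15216, 1643.5 and 1811. Counts were summed per library and cell set, and edgeR's quasi-likelihood test with the library as a block was run over 12210 genes, leaving out those that chose either set. At a Benjamini-Hochberg adjusted p under 0.05 and at least 2-fold, 433 genes were higher in monocytes (3.55%) and 598 were lower (4.9%).

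Irf8 averaged 369 CPM in monocytes and 51.3 CPM in granulocyte-monocyte progenitors, a log2 fold change of 3.18 ± 0.570 (SD of the log2 ratios of 4 libraries; adjusted p = 0.000137). Ly86 averaged 170.02 CPM in monocytes and 16.6 CPM in progenitors (log2 fold change 4.06 ± 0.728, adjusted p = 0.00103). Tifab, a regulator of TRAF6 signalling, was the steadiest of the 10 named higher genes, with 107 CPM in monocytes and 25.1 CPM in progenitors (log2 fold change 2.18 ± 0.175, adjusted p = 3.52e-05). Each was higher in monocytes in 4 of 4 libraries. S100a4, a calcium-binding protein of motile cells, averaged 124 CPM in monocytes and 12.2 CPM in progenitors, and Lgals3, the galectin of macrophages, 228 and 22.2 CPM in the same order. Ctss and Ctsh, cathepsins of the endolysosome, were higher by log2 3.18 and 2.67, S100a6 by 2.27, Ahnak by 3.30 and the peroxiredoxin Prdx4 by 2.16. All 10 were higher in 4 of 4 libraries.

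On the lower side stood genes of basophils, mast cells and eosinophils. Mcpt8, a basophil protease, averaged 29.3 CPM in monocytes and 284 CPM in progenitors (log2 fold change -3.29 ± 0.224, adjusted p = 7.18e-06). Prss34, another basophil protease, averaged 20.9 CPM in monocytes and 510.1 CPM in progenitors (log2 fold change -5.31 ± 0.611). Prg2, the eosinophil major basic protein, varied most between libraries (log2 fold change -5.32 ± 2.22, adjusted p = 0.0066). Cebpe averaged 31.6 CPM in monocytes and 175 CPM in progenitors (log2 fold change -2.53 ± 0.299, adjusted p = 3.68e-05). Cpa3, Cd63, Hdc, Apoe, Pglyrp1 and Vat1 were lower by log2 -3.81, -3.14, -2.20, -2.20, -1.89 and -1.82. These 10 were lower in 4 of 4 libraries. All 4 tested genes of the basophil and mast cell marker list were lower in monocytes (median log2 fold change -3.70). Also lower were 5 of 5 T and NK cell markers (median -1.92) and 3 of 3 stromal ones (-2.45). The same held for 3 of 3 megakaryocyte markers (-1.77) and 2 of 4 B cell markers (-1.42), while 0 of 5 erythroid markers passed in either direction. The comparison cells thus carried RNA of several lineages, and its part in the genes lower in monocytes was not tested.

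By list, 27 of 56 tested monocyte effector genes were higher and 2 lower (median log2 fold change 0.83), against 3.55% higher and 4.9% lower and a median of -0.01 over all genes tested. Of 46 receptors and surface proteins, 13 were higher and 0 lower (median 0.43). Of 43 transcription factors of the lineage, 5 were higher and 3 lower (median 0.30). Of 10 class II antigen-presentation genes, which dendritic cells also use, 4 were higher and 0 lower (median 1.22), and 6 of 7 conventional dendritic cell markers were higher (median 1.51). Azurophil granule genes outside the 4 that chose the comparison set went the other way, with 1 of 11 higher and 4 lower (median -0.75). The comparison cells had to be rich in those 4 genes and members did not, so this direction is not independent of the choice. Of 19 glycolysis genes and 25 MYC and ribosome biogenesis genes, 0 passed in either direction (medians 0.00 and 0.01). Of 35 mitosis genes 1 was higher and 0 lower, with a median of 0.67. Of 26 profibrotic mediators and growth factors 2 were higher and 9 lower (median -0.26).

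**Figure D1:**
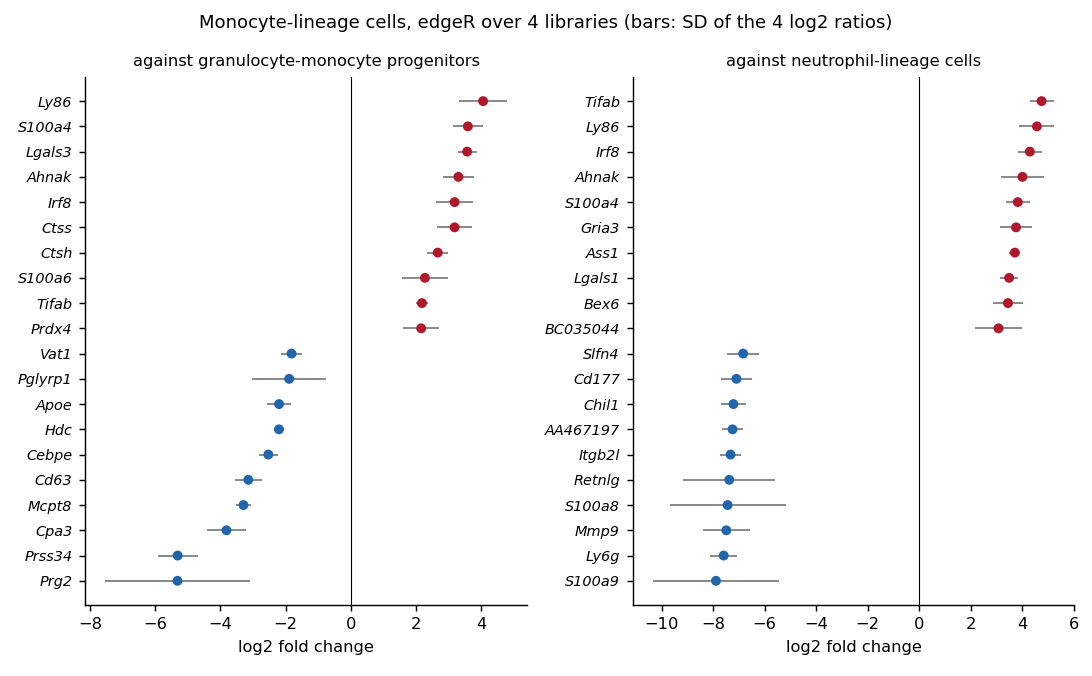
The named genes of both tests within libraries, as log2 fold change of monocytes over granulocyte-monocyte progenitors (left) and over neutrophil-lineage cells (right). Points are edgeR estimates and bars the SD of the log2 ratios of 4 libraries; Irf8, Ly86, Tifab, S100a4 and Ahnak stand on the higher side in both panels, with Irf8 at 3.18 and 4.29.

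Against neutrophil-lineage cells, monocytes had far more Irf8, Tifab, Ly86 and Lgals1 and far less RNA of the alarmins S100a8 and S100a9 and of gelatinase granule genes. Those cells were chosen in the same way by Ltf, Camp, Ngp and Lcn2 and numbered 236, 188, 26 and 139. Their excess of other neutrophil granule genes is not independent of that choice. Of 11291 genes, edgeR called 1935 higher in monocytes (17.1%) and 1942 lower (17.2%). Irf8 averaged 369 CPM in monocytes and 14.5 CPM in neutrophil-lineage cells (log2 fold change 4.29 ± 0.475, adjusted p = 1.37e-08). Lgals1, a galectin of monocytes and macrophages, averaged 1166 CPM in monocytes and 64.3 CPM in neutrophil-lineage cells (log2 fold change 3.49 ± 0.361, adjusted p = 1.07e-08). Ass1, an enzyme of arginine synthesis, was higher by log2 3.71 ± 0.209 (adjusted p = 3.1e-09). Ly6g, the neutrophil surface antigen, averaged 4.97 CPM in monocytes and 333 CPM in neutrophil-lineage cells (log2 fold change -7.59 ± 0.522). S100a9 averaged 2254 CPM in monocytes and 126336 CPM in neutrophil-lineage cells, a log2 fold change of -7.89 ± 2.45 (adjusted p = 1.22e-05). All 25 of 25 tested MYC and ribosome biogenesis genes were higher in monocytes (median 1.66), as were 13 of 32 S-phase genes (median 0.97). Of 35 mitosis genes 0 were higher and 1 lower (median -0.37), and of 19 glycolysis genes 1 was higher and 7 lower (median -0.61). All 6 tested subunits of the phagocyte oxidase were lower in monocytes (median -2.48), and 16 of 26 JAK-STAT target genes were lower and 5 higher (median -1.41), beside a median of 0.13 over all genes.

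By role, the receptor genes with most UMIs in members were Ly6c2, the immune adaptors Tyrobp and Fcer1g, Clec12a, Selplg and Ccr2. UMIs count RNA 3' ends and do not scale with transcript length. Tyrobp stood at 639 CPM in Gli1-/- JAK2V617F members, 474 in WT JAK2V617F members, 763 in Gli1-/- JAK2WT members and 1317 in WT JAK2WT members, and Fcer1g at 599.9, 401, 624 and 1115 CPM. Both were lowest in WT JAK2V617F members and highest in WT JAK2WT members. Selplg, the P-selectin ligand, followed the same order at its low end (189.6, 130.3, 253 and 283 CPM). Among transcription factors, Spi1 was the most even of the 6 with most UMIs, at 301, 278, 298 and 263 CPM, while Zeb2, a repressor needed in monocyte development, had 199.5, 154, 286 and 315 CPM. Among effectors Plac8 (4049.8, 4120.7, 3776 and 3563 CPM) and the peroxidase Gpx1 (2412, 2194, 2134 and 2502 CPM) were even, and Lgals1 was not (1035, 704, 1307 and 1616 CPM).

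Members were not uniform. They ran from cells rich in the azurophil granule genes Mpo, Elane, Prtn3 and Ctsg to cells nearly without them, and the class II genes, Klf4, Crip1 and Cst3 were concentrated at the granule-poor end. Members with at least 100 such UMIs per 10000 made up 55.7% of the Gli1-/- JAK2V617F library (403 cells), 74.9% of the WT JAK2V617F library (215), 53.5% of the Gli1-/- JAK2WT library (378) and 40.5% of the WT JAK2WT library (360). Members with fewer than 20 made up 10.5% (76 cells), 6.97% (20), 15.2% (107) and 23.4% (208) in the same order. The limits are ranges and not types: 105, 16, 141 and 273 members lay within 2-fold of 20 per 10000. T cells of the same libraries, which should lack these genes, had medians of 16.7, 14.7, 12.1 and 26.1 per 10000, above that limit in the WT JAK2WT library and below it in the others.

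Cd74, the class II invariant chain and receptor for the cytokine Mif, had 1400.0, 946, 1066 and 1597 CPM in granule-poor members of the Gli1-/- JAK2V617F, WT JAK2V617F, Gli1-/- JAK2WT and WT JAK2WT libraries, and 37.3, 37.3, 63.1 and 75.004 CPM in granule-rich ones. H2-Aa, a class II chain, had 484, 290.3, 398 and 584 CPM in granule-poor members and 13.9, 15.8, 17.1 and 23.1 CPM in granule-rich ones. Crip1, a zinc-binding LIM protein, had 2365, 779, 2458 and 4529.8 CPM in granule-poor members and 201, 144, 182 and 470.1 CPM in granule-rich ones. Each of the 3 was higher in granule-poor than in granule-rich members in 4 of 4 libraries. Irf8 did not follow that order throughout: it had 1299 and 1034 CPM in granule-poor members of the Gli1-/- and WT JAK2WT libraries against 315 and 389.7 CPM in their granule-rich members. In the Gli1-/- and WT JAK2V617F libraries it had 205 and 77.6 CPM in granule-poor members against 200.4 and 148 CPM in granule-rich ones. The granule-poor members of the JAK2V617F libraries also held most neutrophil RNA, with 24196 and 73159 CPM of S100a8 against 38.5 and 100.5 CPM in the granule-poor members of the Gli1-/- and WT JAK2WT libraries. Its part in the difference of Irf8 was not tested.

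**Figure D2:**
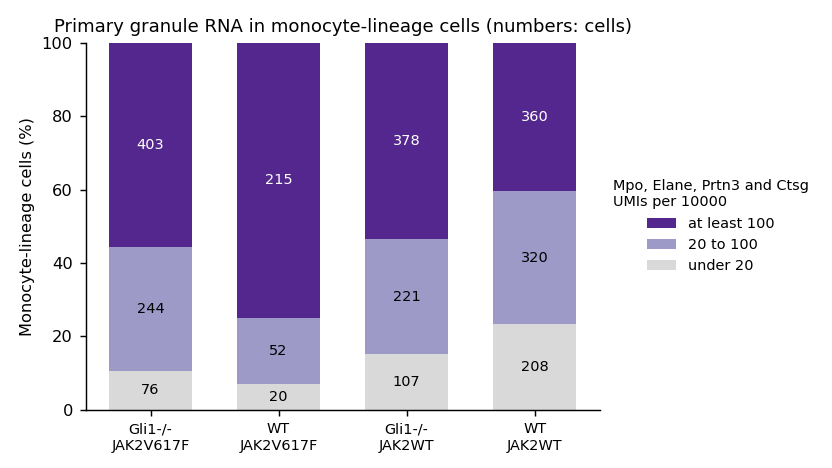
Members by their UMIs of Mpo, Elane, Prtn3 and Ctsg per 10000, stacked as a percentage of members in each library, with cell numbers printed. The WT JAK2V617F bar has the largest granule-rich part (74.9%) and the WT JAK2WT bar the smallest (40.5%); both Gli1-/- bars lie between.

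Members made up a smaller share of marrow cells in both JAK2V617F libraries than in the JAK2WT library of the same genotype. The share was 11.1% (10.4% to 11.9%, exact Clopper-Pearson 95% interval) in the Gli1-/- JAK2V617F library, 7.97% (7.10% to 8.90%) in the WT JAK2V617F library, 17.7% (16.5% to 18.9%) in the Gli1-/- JAK2WT library and 11.1% (10.4% to 11.8%) in the WT JAK2WT library. The ratio for JAK2V617F over JAK2WT was 0.631 (0.573 to 0.695) in Gli1-/- and 0.717 (0.631 to 0.814) in WT. That for Gli1-/- over WT was 1.40 (1.23 to 1.59) with JAK2V617F and 1.59 (1.45 to 1.74) with JAK2WT. Depth differed between these libraries, so cells with at least 3000 UMIs were thinned to 3000 and the rule applied again. Shallower cells were left out, most of them in the WT JAK2WT library. In the Gli1-/- JAK2V617F, WT JAK2V617F, Gli1-/- JAK2WT and WT JAK2WT libraries, 6490, 3602, 3999 and 7987 pass cells became 5742, 3155, 3143 and 4789. Shares were then 4.06% (233 of 5742 cells), 1.77% (56 of 3155), 7.60% (239 of 3143) and 8.12% (389 of 4789) in the Gli1-/- JAK2V617F, WT JAK2V617F, Gli1-/- JAK2WT and WT JAK2WT libraries. At equal depth the JAK2V617F libraries remained lower, with ratios of 0.534 in Gli1-/- and 0.219 in WT. The ratio of Gli1-/- over WT was 2.29 with JAK2V617F, but with JAK2WT it turned to 0.936. At 1000 UMIs few members were left (50, 5, 23 and 86 cells) and the ratio of JAK2V617F over JAK2WT in Gli1-/- turned to 1.34. Magnetic depletion and the mix of sorted fractions also set such shares, and their part was not tested.

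**Figure D3:**
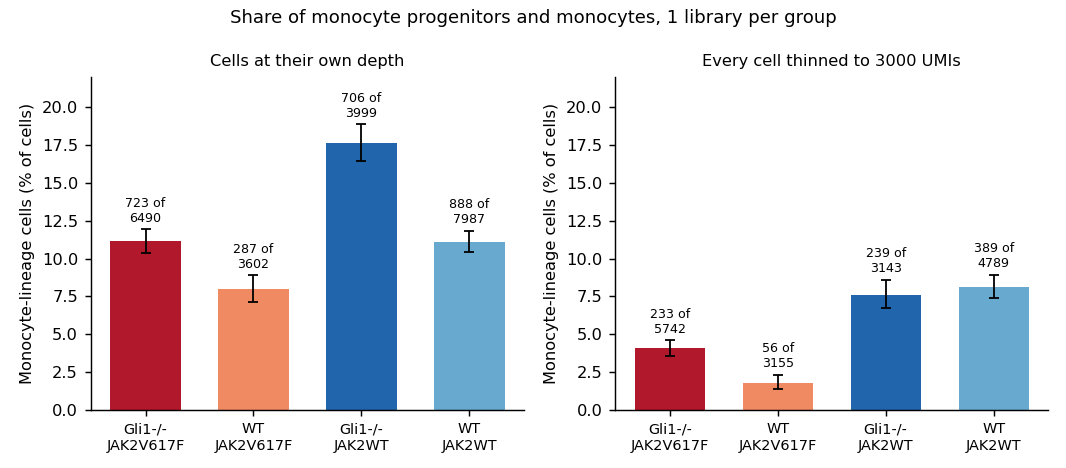
Members as a percentage of pass cells at each library's own depth (left) and after thinning to 3000 UMIs (right), with exact 95% intervals for counting error and member numbers of cells. Cells under 3000 UMIs are left out on the right. The WT JAK2V617F bar is lowest in both panels (7.97% and 1.77%), and the Gli1-/- JAK2WT bar, highest on the left at 17.7%, lies beside the WT JAK2WT bar on the right (7.60% and 8.12%).

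JAK2V617F over JAK2WT was compared within each donor genotype, pairs that share no library. In both, members of the JAK2V617F library had more Pim1, Ifitm1 and Ldha RNA and less of Irf8, Runx2 and Ly6c2. For all but Runx2, not looked at there, granulocyte-monocyte progenitors differed in the same directions. In Gli1-/- JAK2V617F, WT JAK2V617F, Gli1-/- JAK2WT and WT JAK2WT progenitors, Ifitm1 had 677, 839, 197 and 85.6 CPM. Pim1 had 196, 213, 91.9 and 119.6 CPM and Ldha 744, 906, 630 and 326 CPM. Irf8 had 21.9, 13.2, 38.9 and 131 CPM and Ly6c2 277, 216, 488 and 1061 CPM. In WT, 9 of 11 glycolysis genes, 14 of 20 MYC and ribosome biogenesis genes and 7 of 17 stress genes were higher, and 6 of 6 class II genes lower. In Gli1-/- these counts were 1 of 9, 0 of 20, 0 of 17 and 1 of 5. A gene was measured where the higher library of the pair gave it 50 CPM or more from no fewer than 30 counts, and counted when at least 1.5-fold apart on log2(CPM + 10). In Gli1-/-, 47 of 3077 genes were higher with JAK2V617F (1.53%) and 49 lower (1.59%), with a median log2 ratio of 0.07. In WT, 469 of 3237 genes were higher (14.5%) and 329 lower (10.2%), with a median of 0.09. The difference between the genotypes was not tested, and the WT JAK2WT library was also the shallowest. With the rule applied and counts summed at 3000 UMIs per cell, 216 genes were higher and 225 lower in Gli1-/-, and 201 higher and 546 lower in WT. Those sums held far fewer UMIs, from 233, 56, 239 and 389 members in the order used above. Counting error is then larger, and 30 counts ask for a higher CPM in the smallest sum. Such counts therefore do not show the effect of equal depth alone. The same limit holds for the log2 ratios at 3000 UMIs given below.

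Pim1, a survival kinase and a direct target of STAT5 downstream of JAK2, had 228 CPM (222 to 234) in Gli1-/- JAK2V617F members, 202 (192 to 212) in WT JAK2V617F members, 83.9 (80.1 to 87.8) in Gli1-/- JAK2WT members and 77.6 (73.1 to 82.2) in WT JAK2WT members. Both JAK2V617F libraries lay above both JAK2WT libraries, and log2 ratios were 1.34 in Gli1-/- and 1.27 in WT. They were 1.42 and 1.55 among granule-rich members alone. Median levels per cell were 1.96 and 1.63 UMIs per 10000 in Gli1-/- and WT JAK2V617F members against 0.579 and 0.475 in Gli1-/- and WT JAK2WT members. Junb, an immediate early factor, had 109.6 and 120.6 CPM in Gli1-/- and WT JAK2V617F members against 59.0 and 67.2 CPM in the JAK2WT members of the same genotypes (log2 ratios 0.79 and 0.76). Other targets were split. Of 8 measured JAK-STAT target genes in Gli1-/-, 2 were higher and 1 lower (median 0.36), and of 11 in WT, 3 were higher and 3 lower (median 0.06). Bcl2, an anti-apoptotic gene of that list, was among the lower ones in both, with 81.2 and 53.1 CPM in Gli1-/- and WT JAK2V617F members against 169 and 99.5 CPM in the JAK2WT members of the same genotypes. The feedback genes Cish and Socs2 were too low to compare, with Cish at most 5.41 CPM.

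Ifitm1, an interferon-induced membrane protein also made in stem and progenitor cells, had the highest ratio of eligible genes after those of neutrophil granules and alarmins in both genotypes. It had 941 CPM (928 to 953) in Gli1-/- JAK2V617F members, 1189 (1165 to 1212) in WT JAK2V617F members, 143 (138 to 148) in Gli1-/- JAK2WT members and 49.9 (46.3 to 53.6) in WT JAK2WT members. Log2 ratios of JAK2V617F over JAK2WT were 2.64 in Gli1-/- and 4.32 in WT, and 2.56 and 4.30 without the members rich in secondary granule RNA. After thinning to 3000 UMIs, 80.4% and 82.9% of Gli1-/- and WT JAK2V617F members had an Ifitm1 UMI against 27.8% and 10.9% of Gli1-/- and WT JAK2WT members. Unthinned shares were 98.2%, 98.3%, 66.9% and 31.8%. T cells of the same libraries, thinned alike, had shares of 38.1% (of 63 cells), 22.2% (of 9), 10.2% (of 49) and 5.26% (of 836), at unthinned median depths of 4358, 2776, 4786 and 3784 UMIs. Members stood above the T cells in each library. Ifitm6 had 118 and 130.03 CPM in Gli1-/- and WT JAK2V617F members against 12.6 and 37.7 CPM in the JAK2WT members of the same genotypes, and Ifitm3 had 775 and 686 CPM against 344 and 552 CPM. Interferon-induced genes as a list did not follow. In WT 6 of 7 were lower with JAK2V617F and 1 higher (median -0.93), Ifi27l2a lowest, and in Gli1-/- 0 of 6 passed in either direction (median -0.24).

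Glycolysis genes were higher with JAK2V617F in WT, at 9 of 11 measured and 0 lower (median 0.96), and in Gli1-/- at 1 of 9 and 0 lower (median 0.32). Ldha, which makes lactate from pyruvate, had 963 CPM in Gli1-/- JAK2V617F members, 1117 in WT JAK2V617F members, 577 in Gli1-/- JAK2WT members and 368 in WT JAK2WT members, with log2 ratios of 0.73 in Gli1-/- and 1.57 in WT. Pkm, the last kinase of the pathway, had 677, 799, 539.7 and 357 CPM in the same order. The upper enzyme Pfkp did not differ as much, with 48.6, 56.4, 45.1 and 53.9 CPM. The glycolysis median ranged from 0.25 to 0.44 in Gli1-/- and from 0.69 to 1.05 in WT over the 16 alternatives run. Oxidative phosphorylation genes did not accompany them: 0 of 23 were 1.5-fold apart in either genotype (medians 0.11 and 0.08). MYC target and ribosome biogenesis genes were higher in 14 of 20 in WT (median 0.68) and 0 of 20 in Gli1-/- (median 0.26). Srm, which makes spermidine, had 322, 379, 225 and 164 CPM, and Myc itself 134, 127, 108 and 59.2 CPM, in the order used above. Chaperones and sensors of endoplasmic reticulum stress were higher in 7 of 17 in WT (median 0.53) and 0 of 17 in Gli1-/- (median 0.25), with Hspa5 at 1242, 1600.3, 1029 and 842 CPM.

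The transcription factor Irf8 was lower with JAK2V617F in both genotypes. It had 232 CPM (226 to 238) in Gli1-/- JAK2V617F members, 151 (143 to 160) in WT JAK2V617F members, 518 (508 to 527) in Gli1-/- JAK2WT members and 575 (563 to 588) in WT JAK2WT members, giving log2 ratios of -1.12 in Gli1-/- and -1.86 in WT. Among granule-rich members alone the ratios were -0.63 and -1.34, and with the rule applied at 3000 UMIs -1.70 and -1.63. Neutrophil RNA still differed among granule-rich members. Ngp had 297.5 and 246.8 CPM in those of the Gli1-/- and WT JAK2V617F libraries against 9.85 and 6.93 CPM with JAK2WT. At 3000 UMIs per cell, 43.7% and 29.97% of Gli1-/- and WT JAK2V617F members had an Irf8 UMI against 64.3% and 74.2% of Gli1-/- and WT JAK2WT members. Before thinning these shares were 88.5%, 77.4%, 93.8% and 90.5%, and T cells thinned alike had 3.17%, 0%, 10.2% and 19.6%. Runx2, a Runt-domain factor, had 25.5 and 17.8 CPM in Gli1-/- and WT JAK2V617F members against 62.5 and 101 CPM in the JAK2WT members of the same genotypes. Klf4 had 51.5 and 28.2 CPM against 65.2 and 119 CPM, so that it was apart mainly in WT (log2 ratios -0.29 and -1.75). In WT, 11 of 25 measured factors were lower and 1 higher (median -0.49), and the higher one was Cebpe, with 51.0 CPM in WT JAK2V617F members and 20.97 CPM in WT JAK2WT members. In Gli1-/-, 2 of 19 were lower and 1 higher (median -0.20). The higher one was Cebpb, a factor of emergency myelopoiesis, at 346 CPM in Gli1-/- JAK2V617F members and 184 CPM in Gli1-/- JAK2WT members. Spi1 stayed within 0.07 on the log2 scale in both.

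Receptors and surface proteins outside the rule genes were lower with JAK2V617F in 12 of 24 and higher in 2 in WT (median -0.58), and lower in 2 of 21 and higher in 0 in Gli1-/- (median -0.12). Ly6c2 had 586 CPM in Gli1-/- JAK2V617F members, 561 in WT JAK2V617F members, 912 in Gli1-/- JAK2WT members and 1581 in WT JAK2WT members (log2 ratios -0.63 and -1.48). Per cell its medians were 4.25, 4.46, 6.88 and 12.96 UMIs per 10000. Cx3cr1, the fractalkine receptor, had 17.8, 9.77, 31.0 and 56.5 CPM in that order. Trem3, an activating receptor, was among the higher ones in WT, with 133 CPM in WT JAK2V617F members and 54.9 CPM in WT JAK2WT members. Of the rule genes, Ccr2 had 248, 178, 157 and 257 CPM and Csf1r, the M-CSF receptor, 57.9, 31.8, 69.1 and 83.2 CPM. F13a1, coagulation factor XIII A, had 247, 205, 347 and 496 CPM and Ms4a6c 464, 244, 511 and 645 CPM. These 4 chose the members, so their values only describe them.

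Class II genes were lower with JAK2V617F in 6 of 6 in WT (median -1.38) and 1 of 5 in Gli1-/- (median -0.47). Cd74 had 146 CPM in Gli1-/- JAK2V617F members, 69.9 in WT JAK2V617F members, 178 in Gli1-/- JAK2WT members and 394 in WT JAK2WT members, which was lowest where granule-poor members were fewest. Its log2 ratio in WT was -2.34 over all members and -0.84 among granule-rich ones, and with the rule applied at 3000 UMIs it was 0.14. Conventional dendritic cell markers, which include H2-Aa, summed to 78.4, 39.5, 132 and 231 CPM in that order, and their part in the class II difference was not tested. The Cd74 ligand Mif had 905, 1133, 758 and 707 CPM in the same order. Crip1 was lower in WT by log2 -2.87, and by -1.64 among granule-rich members. Effector genes outside the rule genes were split: in WT 10 of 48 were higher and 19 lower (median -0.34), and in Gli1-/- 10 of 44 higher and 2 lower (median 0.12).

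Lyz2, the lysozyme of macrophages and neutrophils, differed in opposite directions. It had 864 CPM in Gli1-/- JAK2V617F members, 661 in WT JAK2V617F members, 372 in Gli1-/- JAK2WT members and 1179.9 in WT JAK2WT members, a log2 ratio of JAK2V617F over JAK2WT of 1.19 in Gli1-/- and -0.83 in WT. S100a6 had 609.8, 581, 226 and 738 CPM. In the JAK2V617F libraries Lyz2 sat in granule-poor members with neutrophil RNA, at 5967 and 9403 CPM in the Gli1-/- and WT libraries against 326 and 162 CPM in their granule-rich members. Members were also split at 20 granule UMIs per 10000, with those at or above it given the same weight of 85.99% in every library, and the ratio in WT was then 0.39. It was 0.63 among members under 100 granule UMIs per 10000 and 0.48 with the rule at 3000 UMIs, so under each of these both genotypes had the same sign. Without members holding RNA of other lineages the signs stayed opposite, with 0.78 in Gli1-/- and -2.30 in WT.

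Mitosis genes were lower with JAK2V617F in 7 of 28 in Gli1-/- (median -0.40) and 8 of 25 in WT (median -0.26), with 0 higher in both. Mki67, a marker of cycling cells, had 203 CPM in Gli1-/- JAK2V617F members, 225 in WT JAK2V617F members, 348 in Gli1-/- JAK2WT members and 419 in WT JAK2WT members. Cenpf, of the kinetochore, had 84.1, 76.0, 167 and 150.3 CPM, and Kif23, of the midbody, 45.7, 37.7, 93.7 and 107 CPM. Both JAK2V617F libraries lay below both JAK2WT libraries for each of the 3. Per cell the list did not separate the WT libraries: thinned to 3000 UMIs, members had medians of 7, 8, 11 and 8 UMIs of G2 and mitosis genes in the order used above, and 69.9%, 76.7%, 74.8% and 69.9% of them had at least 5. S-phase genes showed no such order, with 1 of 28 higher in Gli1-/- and 1 of 27 in WT and 0 lower. Rrm2, a subunit of ribonucleotide reductase, had 274 and 309 CPM in Gli1-/- and WT JAK2V617F members against 169 and 163 CPM in the JAK2WT members of the same genotypes.

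The highest ratios in both genotypes belonged to neutrophil granule genes, and these came from few cells. Ngp, a neutrophil granule protein, had 819.8 CPM in Gli1-/- JAK2V617F members, 1408 in WT JAK2V617F members, 21.03 in Gli1-/- JAK2WT members and 5.84 in WT JAK2WT members. Its log2 ratio of JAK2V617F over JAK2WT was 4.74 in Gli1-/- and 6.48 in WT. Without the members rich in secondary granule RNA it was 0.69 and 0.29. Those members were chosen by Ngp, Camp, Ltf and Lcn2 themselves, so lower ratios of these 4 genes in their absence follow from the choice. Camp, the cathelicidin, had ratios of 3.87 and 5.21 over all members and -0.09 and -0.29 without those members. Ltf, lactoferrin, had 3.71 and 4.66 over all and 0.22 and 0.02 without them. Lcn2, a siderophore-binding protein, had 454 and 881 CPM in Gli1-/- and WT JAK2V617F members against 23.3 and 20.7 CPM in the JAK2WT members of the same genotypes, and kept ratios of 1.58 and 2.72 without them. S100a8 had ratios of 4.43 and 3.74 over all members and 1.92 and -1.96 without them, and S100a9 4.01 and 4.78 over all and 1.45 and -1.69 without them. The 5% of members with most S100a8 held 97.2% and 82.3% of its UMIs in the Gli1-/- and WT JAK2V617F libraries, and its median per cell was 0.604 and 0.467 UMIs per 10000 there against 0.210 and 0.804 in the Gli1-/- and WT JAK2WT libraries. At the other end, Jchain had 10.5, 2.71, 472 and 485 CPM, most of it in the Jchain-rich members given above.

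**Figure D4:**
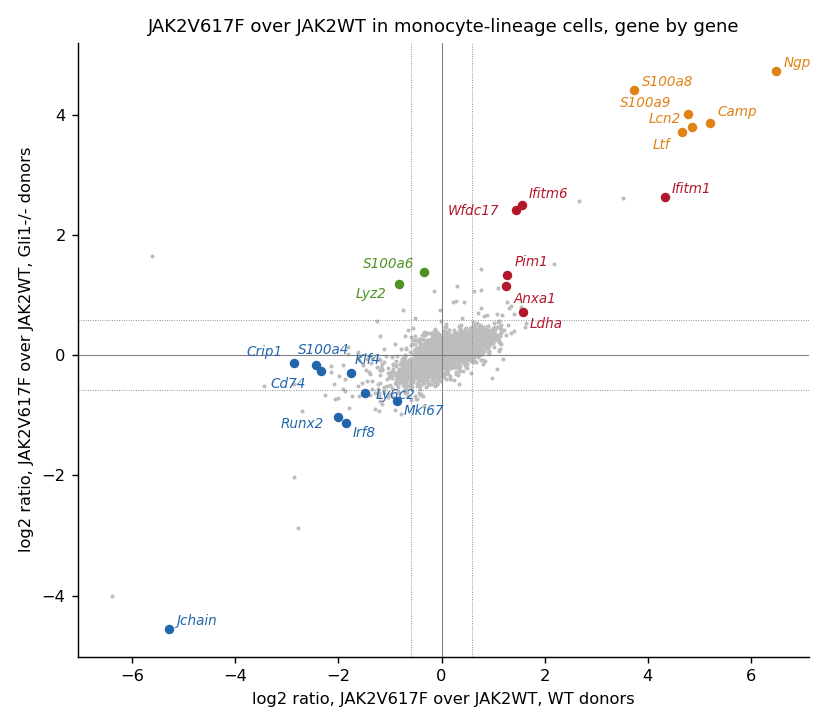
Log2 ratio of JAK2V617F over JAK2WT in WT donors (horizontal) against Gli1-/- donors (vertical) for 2979 genes measured in both; dotted lines mark 1.5-fold. Ifitm1 (4.32 and 2.64), Pim1 (1.27 and 1.34) and Ldha (1.57 and 0.73) lie upper right and Irf8 (-1.86 and -1.12) lower left. The granule genes Ngp, Camp, Lcn2 and Ltf and the alarmins S100a8 and S100a9 lie above Ifitm1 on the vertical axis. On the horizontal axis S100a8 (3.74) lies short of Ifitm1. Lyz2 and S100a6 lie upper left.

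Over the 2979 genes measured in both genotypes, 42 were higher with JAK2V617F in Gli1-/- and 422 in WT, and 30 in both, which is 71.4% of the Gli1-/- list and 7.11% of the WT list. None of the genes higher in WT was lower in Gli1-/- past 1.5-fold. The background is 1.41% of all 2979 genes higher in Gli1-/- and 14.2% in WT. On the lower side 46 genes in Gli1-/- (1.54% of all) and 238 in WT (7.99%) shared 38, which is 82.6% and 16.0% of these lists, and 3 that were lower in WT were higher in Gli1-/-. Beside the genes above, the shared higher ones included Anxa1, an annexin of resolving inflammation (309.5, 389, 134 and 157 CPM), Wfdc17, a secreted protein of activated macrophages (120.5, 97.9, 14.4 and 29.5 CPM), and Ctsc, which activates granule proteases (235, 197, 80.4 and 112 CPM, in the order used above).

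**Figure D5:**
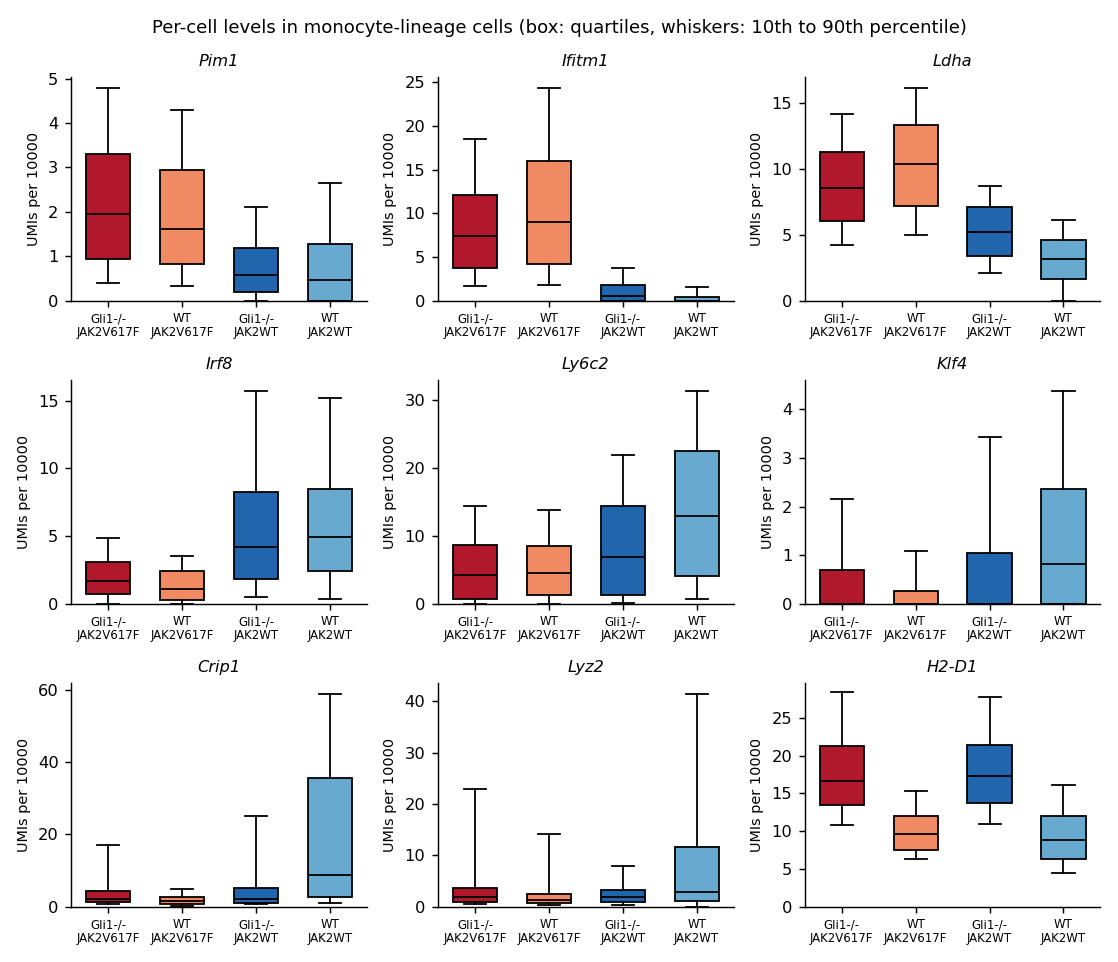
UMIs per 10000 in each member for Pim1, Ifitm1, Ldha, Irf8, Ly6c2, Klf4, Crip1, Lyz2 and H2-D1; boxes are quartiles and whiskers the 10th to 90th percentile of cells, which are not replicates. Pim1, Ifitm1 and Ldha have higher medians in both JAK2V617F libraries, Irf8 and Ly6c2 lower ones, and H2-D1 has higher medians in both Gli1-/- libraries (16.7 and 17.3 against 9.58 and 8.88).

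Gli1-/- over WT was compared with JAK2V617F and with JAK2WT, again pairs that share no library. H2-D1, Cd34 and Tpm3-rs7 were higher and Cd63, Hist2h2ac and Tspan32 lower in both. Crip1, Psap and Klf4 were higher in Gli1-/- with JAK2V617F and lower in Gli1-/- with JAK2WT, and kept these signs with the rule at 3000 UMIs. S100a4, Ahnak and Cd74 had the same signs at full depth, but at 3000 UMIs their log2 ratios with JAK2V617F were -0.25, -0.054 and -1.74. With JAK2V617F, 54 of 3040 genes were higher in Gli1-/- (1.78%) and 47 lower (1.55%), with a median log2 ratio of -0.01. With JAK2WT, 71 of 3085 were higher (2.3%) and 104 lower (3.37%), with a median of 0.03.

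Of 2790 genes measured with both, 48 were higher in Gli1-/- with JAK2V617F and 67 with JAK2WT (1.72% and 2.40% of all), and 9 in both (18.8% and 13.4% of these lists). On the lower side 27 and 67 genes (0.968% and 2.40% of all) shared 9 (33.3% and 13.4% of these lists). There were 15 genes higher in Gli1-/- with JAK2V617F and lower with JAK2WT, and 2 of the opposite kind. H2-D1, a class I heavy chain, had 1712 CPM in Gli1-/- JAK2V617F members and 976 in WT JAK2V617F members, and 1755 in Gli1-/- JAK2WT members and 897 in WT JAK2WT members (log2 ratios 0.80 and 0.96). It was also higher among granule-rich members alone, at 1682 and 945 CPM with JAK2V617F and 1751 and 804 CPM with JAK2WT. Of the other 9 measured class I genes, 0 were higher with JAK2V617F and 1 with JAK2WT, H2-Q7 (91.3 CPM in Gli1-/- and 48.7 in WT members), and reads of class I genes can be split between near-identical copies. Tpm3-rs7, a tropomyosin copy, had 178 CPM in Gli1-/- JAK2V617F members and 5.77 in WT JAK2V617F members, and 187 in Gli1-/- JAK2WT members and 5.36 in WT JAK2WT members. Hist2h2ac, a histone H2A gene, had 24.8 and 121 CPM in Gli1-/- and WT JAK2V617F members and 24.2 and 142 CPM in Gli1-/- and WT JAK2WT members. Both belong to families of near-identical copies, so their values are uncertain.

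Cd63, a tetraspanin of lysosomes and granules, had 44.8 CPM in Gli1-/- JAK2V617F members and 121 in WT JAK2V617F members, and 20.1 in Gli1-/- JAK2WT members and 84.4 in WT JAK2WT members (log2 ratios -1.26 and -1.65). On GRCm38, Cd63 lies at chr10:128900989-128912822, and Gli1 lies on the same chromosome at chr10:127329882-127341974. Tspan32, another tetraspanin, had 18.99 and 67.7 CPM in Gli1-/- and WT JAK2V617F members and 18.7 and 55.2 CPM in Gli1-/- and WT JAK2WT members. Gda, guanine deaminase, had 45.8 and 91.3 CPM in Gli1-/- and WT JAK2V617F members and 18.1 and 54.5 CPM in Gli1-/- and WT JAK2WT members. Bloc1s2, a subunit of lysosome-positioning complexes, was higher, with 196 and 95.2 CPM in Gli1-/- and WT JAK2V617F members and 226 and 123 CPM in Gli1-/- and WT JAK2WT members. Donor sex and genotype cannot be told apart in these differences.

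With JAK2V617F, Crip1, S100a10, Psap, Irf8 and Cd74 were at least 1.5-fold higher in Gli1-/- than in WT members. Crip1 had 470.4 CPM in Gli1-/- JAK2V617F members and 208 in WT JAK2V617F members, S100a10, an annexin partner, 533 and 225 CPM, and Psap, the lysosomal saposin precursor, 508 and 246 CPM. Irf8 had 232 and 151 CPM and Cd74 146 and 69.9 CPM in the same order. S100a6 (609.8 and 581 CPM) and Lyz2 (864 and 661 CPM) were not 1.5-fold apart. Class II genes were higher in 3 of 3 measured (median 0.87). Outside the rule genes, monocyte markers were higher in 4 of 7 (median 0.59), effector genes in 10 of 45 with 3 lower (median 0.12) and receptors in 2 of 20 with 1 lower (median 0.15). The make-up of members differed as well, with granule-rich cells at 55.7% of Gli1-/- and 74.9% of WT JAK2V617F members. Its part in these differences was not tested. Among granule-rich members the log2 ratio of Crip1 was 0.45 in place of 1.14. With the rule applied at 3000 UMIs the class II median was -0.58 and Cd74 had -1.74. Lower in Gli1-/- were Mt1, a metallothionein (288 and 627 CPM), the transferrin receptor Tfrc (52.1 and 125 CPM), the carbonic anhydrase Car2 (46.8 and 137 CPM) and the chitinase-like Chil3 (17.0 and 321 CPM). For Car2 the log2 ratio was -1.37 over all members and -0.11 without members holding RNA of other lineages, 17 of which in the WT library were rich in haemoglobin. For Chil3 it was -3.62 over all and -1.84 without them, and the 5% of members with most Chil3 held 73.0% of its UMIs in the WT JAK2V617F library.

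With JAK2WT, Crip1, Lgals3, S100a6 and Lyz2 were lower in Gli1-/- members and progenitor genes such as Cd34 and Sox4 higher, while Irf8 was not apart (518 and 575 CPM in Gli1-/- and WT JAK2WT members). Crip1 had 515 CPM in Gli1-/- JAK2WT members and 1578 in WT JAK2WT members, Lgals3 137 and 403 CPM, S100a6 226 and 738 CPM and Lyz2 372 and 1179.9 CPM. Outside the rule genes, effector genes were lower in 19 of 44 with 0 higher (median -0.53) and receptors in 6 of 23 with 1 higher (median -0.22), and class II genes were lower in 3 of 6 with 0 higher (median -0.61). Progenitor genes were higher in 7 of 13 with 0 lower (median 0.68). Cd34, a sialomucin of early progenitors, had 219 CPM in Gli1-/- JAK2WT members and 98.7 in WT JAK2WT members, and with JAK2V617F 165 in Gli1-/- and 106 in WT members. Sox4 had 165 and 74.4 CPM, Alas1, the first enzyme of haem synthesis, 234 and 108 CPM, and Ifitm1 143 and 49.9 CPM in Gli1-/- and WT JAK2WT members. Azurophil granule genes were higher in 3 of 14 with 0 lower (median 0.36). Granule-rich cells were 53.5% of Gli1-/- and 40.5% of WT JAK2WT members. Among them Crip1 kept a log2 ratio of -1.32, and Cd34 stayed between 0.86 and 1.20 over the 16 alternatives run. Glycolysis genes, higher with JAK2V617F, were higher in 2 of 9 in Gli1-/- with JAK2WT (median 0.45).

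Set side by side, the pairs of libraries differed in how many genes stood apart. There were 175 genes 1.5-fold apart between Gli1-/- JAK2WT and WT JAK2WT members, 96 between Gli1-/- JAK2V617F and Gli1-/- JAK2WT members and 101 between Gli1-/- JAK2V617F and WT JAK2V617F members. Between WT JAK2V617F and WT JAK2WT members there were 798. With the rule applied at 3000 UMIs these counts were 352, 441, 367 and 747 in the same order. Sums at that depth held far fewer UMIs, so counting error is larger in the latter counts. Crip1 had 470.4 and 515 CPM in Gli1-/- JAK2V617F and Gli1-/- JAK2WT members, between 208 CPM in WT JAK2V617F and 1578 CPM in WT JAK2WT members. Pim1 and Irf8 did not lie so, each separating by transduction. These counts share libraries and are given side by side only.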

How the data were processed

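Values are UMI counts per gene and cell barcode as deposited by the authors, with cells already called and no normalisation (Single Cell 3' kit version 3.1, per the labels' protocols). Cell Ranger 4.0.0, mm10 and Seurat 4.0.4 are named, without roles, in the submitters' processing notes. The matrices held 31054 features, of which 31011 matched GENCODE M21 (GRCm38). The 4 hashing-tag libraries were not analysed here, so single mice could not be told apart.

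Members were found by their rule and counts summed per library. Levels are CPM with exact Poisson intervals, shares carry Clopper-Pearson 95% intervals and ratios of shares log-normal ones. Log2 ratios had 10 CPM added. T cells, with at least 2 of Cd3e, Cd3g and Trbc2, gave the free RNA background. edgeR 4.0.16 (glmQLFTest, TMM, filterByExpr, library as block; 4 libraries) was the test between cell sets, with DESeq2 1.42.0 as an alternative, and both were tested on simulated data. Doublets were scored with Scrublet in scanpy 1.11.5 (0.8% per 1000 barcodes) and removed only as an alternative. Other tools were Python 3.11.15, numpy 2.4.6, scipy 1.17.1, pandas 2.3.3, anndata 0.12.19, matplotlib 3.10.9 and R 4.3.3.

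Members and all 44 gene lists were chosen with earlier results of these data known. Named genes are, per comparison of libraries, the 6 highest and 6 lowest ratios at 100 CPM and 30 counts with 1 sign in members above and below 20 granule UMIs per 10000, and per test the 10 highest and 10 lowest called genes. Mitochondrial, ribosomal, predicted, haemoglobin, immunoglobulin, T cell receptor, sex-linked and rule genes were not eligible. Added are the markers, Gli1, Jak2, Mif, Cd74, GFP, the 2 highest and 2 lowest members of each list quoted and the 6 receptors, factors and effectors with most UMIs. Anxa1, Bloc1s2, Tspan32, H2-Q7, Cish and Socs2 were named after their values were seen.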

Additional observations from a re-analysis of the deposited data

Results flagged for a closer look

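Lyz2 was flagged because JAK2V617F went with opposite differences in the 2 donor genotypes, and the difference was not tested. Its log2 ratio of JAK2V617F over JAK2WT was 1.19 in Gli1-/- and -0.83 in WT, which are 2.02 apart. In WT it was 0.48 with the rule at 3000 UMIs, 0.39 with the same weights for granule-high members in every library and 0.63 among members under 100 granule UMIs per 10000, so the signs were then no longer opposite. Without members holding RNA of other lineages they stayed opposite, at 0.78 in Gli1-/- and -2.30 in WT.

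A further 7 genes were flagged because Gli1-/- over WT had opposite signs with JAK2V617F and with JAK2WT. None of these differences was tested, and the 4 libraries behind them are single pools. Crip1 had log2 ratios of 1.14 with JAK2V617F and -1.60 with JAK2WT, 2.74 apart. Ifi27l2a, an interferon-induced gene, had 1.99 and -0.94, 2.93 apart. Ahnak, a scaffold of the cell cortex, had 0.82 and -1.56, 2.38 apart, and S100a4 0.96 and -1.32, 2.28 apart. Cd74 had 0.96 and -1.11, 2.07 apart, Psap 1.01 and -0.81, 1.82 apart, and the factor Klf4 0.69 and -0.78, 1.46 apart. The share of granule-rich members was lower in Gli1-/- than in WT with JAK2V617F (55.7% and 74.9%) and higher with JAK2WT (53.5% and 40.5%). Among granule-rich members alone the ratios with JAK2V617F and with JAK2WT were 0.45 and -1.32 for Crip1, 1.02 and -0.81 for Ifi27l2a, 0.42 and -1.69 for Ahnak, 0.57 and -1.56 for S100a4, -0.00030 and -0.22 for Cd74, 0.83 and -0.71 for Psap and 0.40 and -1.01 for Klf4. With the rule at 3000 UMIs the signs stayed opposite for Crip1 (0.42 and -0.99), Ifi27l2a (1.33 and -0.30), Psap (0.17 and -0.36) and Klf4 (0.31 and -0.51). They were no longer opposite for Ahnak (-0.054 and -1.18), S100a4 (-0.25 and -0.84) and Cd74 (-1.74 and -1.59). The sum at 3000 UMIs held only 56 members in the WT JAK2V617F library, so counting error is larger in these ratios.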

How the results depend on the processing

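No paired analysis was possible because each group is 1 library. Precision was limited by single libraries and by depth. Of 118 recomputed main values, 80 kept their direction and size, 35 moved and 3 reversed. The alternatives that split members by granule or other-lineage RNA were chosen after seeing the data. The cause of each change was not tested.

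The share ratio of JAK2V617F over JAK2WT in Gli1-/- was 0.534 at 3000 UMIs, 1.34 at 1000, 0.783 with 2 rule genes, 0.548 with cells of at least 1000 genes and 2000 UMIs, 0.572 with lymphoid, plasma and plasmacytoid cells left out and 0.556 without members holding other-lineage RNA. In WT it was 0.219 at 3000 UMIs, 0.129 at 1000, 0.522 with all 4 rule genes, 0.582 with the higher cell limits and 0.457 without lymphoid cells. The ratio of Gli1-/- over WT with JAK2V617F was 2.29 at 3000 UMIs, 5.55 at 1000 and 2.08 with all 4 rule genes. With JAK2WT it was 0.936 at 3000 UMIs, 0.534 at 1000, 1.26 with 2 rule genes, 1.78 with all 4 and 1.12 without lymphoid cells. At a limit of 5 granule UMIs per 10000 the ratio of granule-high shares was 0.993 for JAK2V617F in WT and 0.985 for Gli1-/- with JAK2WT.

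Counts of genes 1.5-fold apart were 96 for JAK2V617F in Gli1-/-, 798 in WT, 101 for Gli1-/- with JAK2V617F and 175 with JAK2WT. In that order they were 52, 357, 54 and 66 with 50 CPM added, 209, 1529, 209 and 365 with no filter, and 41, 218, 29 and 53 from 200 CPM. With the rule at 3000 UMIs they were 441, 367 and 352 for JAK2V617F in Gli1-/- and Gli1-/- with JAK2V617F and with JAK2WT. Among granule-rich members Gli1-/- with JAK2V617F gave 67, and among the others it gave 167 and JAK2V617F in Gli1-/- gave 188. Higher and lower counts for JAK2V617F in WT, 469 and 329, were 201 and 546 at 3000 UMIs, 720 and 809 with no filter, 390 and 170 among granule-rich members and 374 and 443 among the others. For Gli1-/- with JAK2V617F, 54 and 47 became 306 and 61 at 3000 UMIs, 10 and 19 from 200 CPM, 64 and 27 without other-lineage members and 65 and 102 among granule-poorer members. For JAK2V617F in Gli1-/-, 47 and 49 became 33 and 53 without other-lineage members and 31 and 21 with 50 CPM added, and for Gli1-/- with JAK2WT 71 and 104 became 178 and 174 at 3000 UMIs and 19 and 47 with 50 CPM added. At 3000 UMIs the median of all genes was -0.23 for JAK2V617F in WT and 0.17 for Gli1-/- with JAK2V617F, within 0.14 of 0 elsewhere. The sums at 3000 UMIs were small, with only 56 members in the WT JAK2V617F library. Counting error is therefore larger in all values at that depth. Against granulocyte-monocyte progenitors the edgeR test without the library as block called 399 genes, DESeq2 411 higher and 479 lower, and leaving out each library gave 341 to 457 higher and 421 to 641 lower. Against neutrophil-lineage cells DESeq2 called 1864 higher and 1820 lower.

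Log2 ratios of single genes reversed as follows. Those with the rule at 3000 UMIs rest on the same small sums. With the rule at 3000 UMIs, JAK2V617F over JAK2WT in WT was 0.14 for Cd74, 0.23 for Lgals3 and 0.48 for Lyz2, and Gli1-/- over WT with JAK2V617F was -0.054 for Ahnak, 2.49 for Camp, 0.0016 for Car2, -1.74 for Cd74, 1.93 for Ngp, -0.25 for S100a4 and -0.58 for the class II median. With the same weight for granule-high members in every library Lyz2 was 0.39 for JAK2V617F in WT, and with all 4 rule genes Cd74 was -0.032 for Gli1-/- with JAK2V617F. Without other-lineage members JAK2V617F in WT was -0.31 for Camp, -0.18 for Chil3, -0.049 for Ltf, -1.92 for S100a8 and -1.53 for S100a9, JAK2V617F in Gli1-/- -0.10 for Camp, and Gli1-/- with JAK2V617F 0.22 for Camp, 0.56 for Ngp, 1.10 for S100a8 and 1.75 for S100a9. Without members rich in secondary granule RNA the same were -0.29 for Camp, -0.26 for Chil3, -1.96 for S100a8 and -1.69 for S100a9 in WT, -0.092 for Camp in Gli1-/-, and 0.14 for Camp, 0.46 for Ngp, 1.09 for S100a8 and 1.79 for S100a9 for Gli1-/- with JAK2V617F. Camp, Ngp and Ltf helped choose the members left out in both settings, so their changes are not independent of that choice. Among granule-rich members Rnase6 was 0.047 for JAK2V617F in Gli1-/-, and for Gli1-/- with JAK2V617F Camp was 0.16, Cd74 -0.00030, Ngp 0.26 and S100a9 0.40. Among the others Lyz2 was 0.63 for JAK2V617F in WT and S100a8 0.32 for Gli1-/- with JAK2WT. Of the other values, 3444 kept their direction and size, 1296 moved and 40 reversed, those above among them.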

Other observations

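Genes of fibrosis and inflammation, a list of interest in this disease, were mostly low in members. Of 38 such genes in the files, 6 were measured in each genotype of the JAK2V617F comparison. In Gli1-/-, Lcn2 and the chemokine Ccl6 were higher with JAK2V617F and 0 lower (median log2 ratio 0.13). In WT, Lcn2 and Mif were higher and the growth factor precursor Grn and fibronectin (Fn1) lower (median 0.10). Tgfb1, the main fibrogenic cytokine of the list, had 271 CPM in Gli1-/- JAK2V617F members, 236 in WT JAK2V617F members, 269 in Gli1-/- JAK2WT members and 211 in WT JAK2WT members, and was 1.5-fold apart in none of the 4 comparisons. Ccl6 had 53.7, 39.4, 17.1 and 46.5 CPM in that order. Il1b reached at most 7.18 CPM and Osm, oncostatin M, at most 10.2 CPM, both in WT JAK2V617F members. Of 22 hedgehog pathway genes, 1 was measured, Spop, with 132, 128, 145 and 118 CPM.

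Iron and metal genes stood apart in the WT JAK2V617F library: 3 of 5 measured were higher with JAK2V617F in WT (median 1.06), 0 of 4 in Gli1-/- (median 0.26), and 3 of 5 were lower in Gli1-/- than in WT with JAK2V617F (median -1.10). The shares over all genes in these 3 comparisons were 14.5% higher, 1.53% higher and 1.55% lower. The ferritin chains Fth1 (2344, 2329.8, 1846 and 1798 CPM) and Ftl1 (1482, 1553, 1306 and 1571 CPM) were not among the iron and metal genes that stood apart. Haemoglobin RNA was also concentrated in that library, at 495 CPM of Hbb-bs against 4.42, 3.47 and 1.90 CPM in the Gli1-/- JAK2V617F, Gli1-/- JAK2WT and WT JAK2WT libraries, and its part in the difference was not tested.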
